A study of Mus musculus with 105 samples.

Results

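The X-linked genes of the Cast chromosome were followed while that chromosome was being inactivated. In female mammals one X chromosome is transcriptionally silenced in every cell during early development. The noncoding RNA Xist is produced from the X chromosome that will be inactivated, spreads over it in cis and recruits repressive complexes, and its antisense partner Tsix, together with the other genes of the X-inactivation centre, controls whether it is switched on. A small number of genes, called escape genes, continue to be transcribed from the inactive X chromosome, and Kdm6a, Kdm5c, Eif2s3x and Ddx3x are the best known of them in the mouse. Female mouse embryonic stem cells keep both X chromosomes active in the naive state and start the process when they differentiate.

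TXdXicB6 is a clone of TX1072, a female C57BL6/J x Cast/EiJ F1 hybrid embryonic stem cell line. A CRISPR deletion (mm10, chrX:103182701-103955531) removed the X-inactivation centre with Xist from its B6 X chromosome, so that only the Cast X chromosome can produce Xist. All lines used here also have rtTA, the transactivator that doxycycline turns on, in Rosa26. The promoter that responds to it lies upstream of Xist on the B6 chromosome in TX1072 and TXdXicCast, and in TXdXicB6 the B6 copy of Xist is deleted. Differentiation was started by withdrawal of 2i (a Gsk3 and a MEK inhibitor) and LIF, which hold the naive state, and total RNA was sequenced on days 0, 1, 2, 3 and 4 in 3 replicates each, giving 15 libraries. Reads that overlap a single nucleotide polymorphism (SNP) between the parental strains were attributed to the parental allele they came from. TXdXicCast, which is also a single clone, lacks the corresponding region (chrX:103182257-103955698) on the Cast X chromosome and has the same 15 day and replicate combinations. The undeleted TX1072 line, in which either X chromosome can be inactivated, was used as bulk RNA and as single cells, both on days 0 and 4.

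Genes were taken if they lie on the X chromosome outside the deleted region and had 50 or more allele-specific counts (B6 plus Cast) over the 6 TXdXicB6 libraries of days 0 and 4. This applied to 486 of the 2587 X-linked genes in the count tables. A further 46 genes overlap the deleted region, 1647 had no allele-specific count and 408 had 1 to 49. Of the 486 genes, 441 are annotated as protein coding. The counts behind a gene ran from 50 to 115251 with a median of 882.5, and 338 genes had 300 or more. The measure is the Cast/B6 ratio on the log2 scale, where 0 stands for equal counts from both alleles and negative values for fewer counts from Cast, and each change is day 4 minus day 0.

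Total counts in the 6 libraries of days 0 and 4 ranged from 23498971 to 38698371. Day 0 replicate 1 stood apart from the others. It had 25850062 total counts, but 5.21% of them were assigned to an allele (1347911 counts), compared with 31.4% to 34.9% in the other 5 libraries. On day 2, replicates 1 and 2 were also low (20.3% and 9.57%). The reason was not tested. The autosomal Cast/B6 ratio of day 0 replicate 1 (-0.040) lay close to those of the other 2 libraries of day 0 (-0.048 and -0.050). Its ratios rest on fewer counts, and results are given without it where it changes them.

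The libraries matched their labels. Of the 10 tested genes of the deleted region, Xist had 19 B6 and 55569 Cast counts over all 15 TXdXicB6 libraries, and the other 9 genes had 0 or 1 B6 count and 221 to 2447 Cast counts each. Xist itself had 6, 24 and 22 total counts on day 0 and 15833, 22106 and 14432 on day 4, of which 7096, 10221 and 6065 were assigned to Cast and 3, 1 and 1 to B6. The naive marker Klf4 had a mean of 405 ± 46.9 CPM (total counts scaled to the autosomal library size, SD, n = 3) on day 0 and 9.47 ± 2.59 on day 4. Esrrb had 861 ± 74.5 and 87.5 ± 16.2 CPM. The epiblast marker Fgf5 had 0.165 ± 0.089 and 173 ± 7.54 CPM. Markers of other cell types were also measured. The 5 fibroblast markers summed to 37.2 to 46.3 CPM on day 0 and 19.2 to 26.5 CPM on day 4. Thy1 was the most abundant on day 4. Col1a1 (means of 17.1 and 5.82 CPM) and Col1a2 (14.8 and 1.09 CPM) were lower on day 4. By contrast, Thy1 (8.45 and 12.9 CPM), Pdgfra (0.987 and 1.92 CPM) and Col3a1 (0.023 and 0.523 CPM) were higher. The 3 mesoderm markers summed to 13.3 to 17.6 CPM on day 0 and 89.1 to 138 CPM on day 4, with Eomes at 80.7 CPM, about the level of Esrrb on that day. The 4 primitive endoderm markers summed to 2.09 to 3.62 CPM on day 0 and 9.85 to 16.6 CPM on day 4. The means of Foxa2 (0.135 and 8.45 CPM) and Gata4 (1.45 and 4.08 CPM) were higher on day 4. Those of Gata6 (0.588 and 0.288 CPM) and Sox17 (0.763 and 0.293 CPM) were lower. The trophoblast markers summed to 22.5 to 32.2 CPM on day 0 and 7.32 to 11.3 CPM on day 4. The neural markers summed to 4.22 to 4.59 CPM on day 0 and 5.90 to 12.9 CPM on day 4. Pax6 (means of 0.295 and 2.80 CPM) and Neurod1 (0.209 and 4.23 CPM) were higher on day 4, whereas Sox1 (3.84 and 2.47 CPM) was lower. The part of the cells behind these markers in the ratios was not tested. In bulk RNA, fewer silenced cells and a smaller fall per cell cannot be told apart.

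Silencing of the Cast allele was progressive over the whole chromosome. The summed Cast/B6 ratio of the 486 genes was -0.021, -0.015 and -0.031 in the 3 libraries of day 0 and -0.024, -0.029 and -0.039 on day 1, when the days overlapped. It was -0.39, -0.38 and -0.47 on day 2, -0.77, -0.77 and -0.86 on day 3 and -1.02, -1.13 and -1.18 on day 4. From day 2 on, every library was below every library of the day before. The Cast share of the counts was 49.6% on day 0 and 31.8% on day 4. The mean change to day 4 was -1.09 (exact permutation test, two-sided, p = 0.1, the smallest that 3 libraries against 3 allow). The autosomal ratio stayed between -0.054 and -0.040 in all 15 libraries, and the median change of single autosomes ran from -0.032 on chromosome 13 to 0.049 on chromosome 11.

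**Figure D1:**
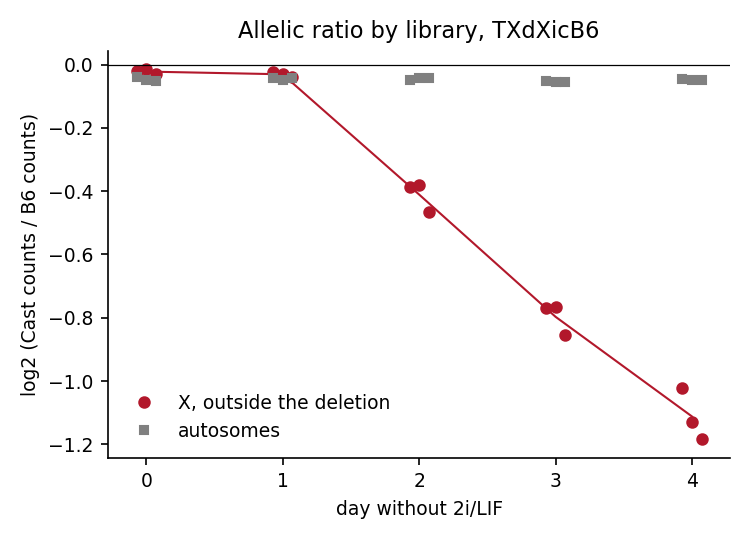
Log2 ratio of summed Cast to summed B6 counts (y axis) in each TXdXicB6 library by day without 2i/LIF (x axis), for the 486 X-linked genes (red circles, the line joins the means of 3 libraries) and for autosomal genes (grey squares). The X-linked ratio is level until day 1 and reaches -1.02 to -1.18 on day 4, while the autosomal ratio stays between -0.054 and -0.040.

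Gene by gene, 307 of the 486 X-linked genes (63.2%) had a lower Cast/B6 ratio on day 4 than on day 0 and 5 (1.03%) had a higher one (edgeR quasi-likelihood test, Benjamini-Hochberg adjusted p of 0.05 or less over 14567 genes). The background is not small, since 9.54% of all genes tested were called lower and 7.74% higher, and among the 14071 autosomal genes 7.70% and 7.98%. The median fitted change was -1.21, with quartiles of -1.74 and -0.72, so that the median gene kept 43.4% of its day 0 ratio, whereas the autosomal median was -4.57e-05. Among the 338 genes with 300 or more counts, 285 were called lower, 3 higher and 50 not called, and 329 had a change below 0. Of the 148 genes with fewer counts, 22 were lower, 2 higher and 124 not called. The number of lower genes was 304 without day 0 replicate 1, 266 without day 0 replicate 2 and 277 without day 0 replicate 3. The number of higher genes was 2 without day 0 replicate 3 and 3 with DESeq2.

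**Figure D2:**
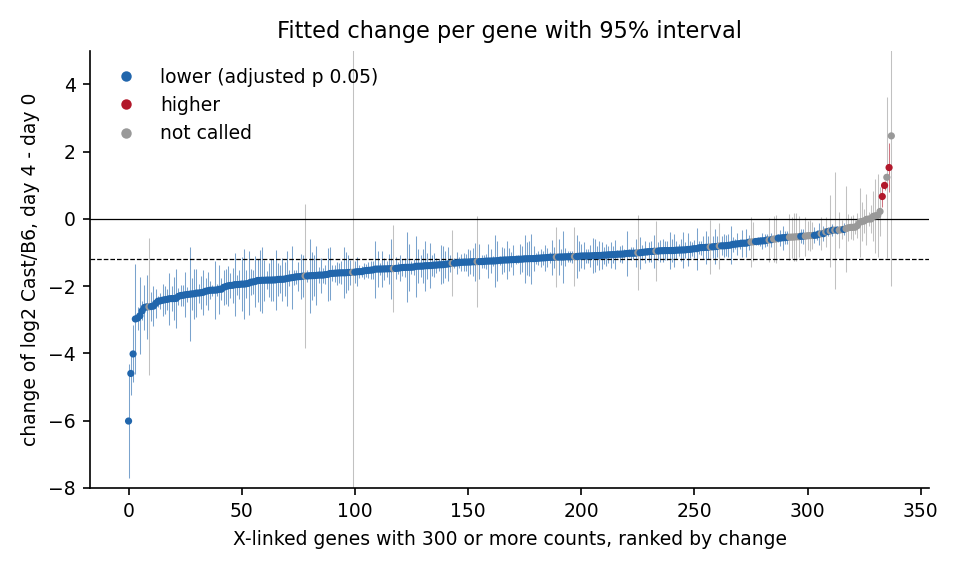
Fitted change of log2 Cast/B6 (day 4 minus day 0, y axis) of the 338 X-linked genes with 300 or more counts, ranked (x axis), with 95% intervals cut off at the axis limits. Blue points are the 285 genes called lower, red the 3 called higher and grey the 50 not called. The dashed line is the median of all 486 genes, -1.21.

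The 5 genes with most counts were all called lower. Rps4x, a ribosomal protein gene with several pseudogenes that can share its reads, had 51.8, 53.7 and 51.0% of its counts from Cast in the 3 libraries of day 0 and 41.2, 38.0 and 40.1% on day 4, a change of -0.72 ± 0.048 (SE, adjusted p = 5.04e-22). Flna, which encodes the actin cross-linker filamin A, went from 41.5, 42.4 and 41.8% to 26.4, 27.7 and 23.6%. The ubiquitin-activating enzyme gene Uba1 went from 49.1, 48.5 and 49.2% to 38.6, 36.5 and 37.4%. In each of them the days did not overlap, and the changes were -1.05 ± 0.063 for Flna and -0.67 ± 0.053 for Uba1. The deubiquitinase gene Usp9x had the smallest fitted change of the 5, from 44.7, 45.4 and 46.6% to 41.8, 39.1 and 39.1% (-0.34 ± 0.055, adjusted p = 9.03e-07). The ubiquitin ligase gene Huwe1 went from 50, 50.1 and 49.2% to 34.1, 33.2 and 32.9%, a change of -0.98 ± 0.054.

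Of the genes that the study also assays by pyrosequencing or names, those given here changed by -1.70 to 0.99. None of these lay below the lower quartile of all 486 genes (-1.74). Hprt, of the purine salvage pathway, fell most of the well-covered ones, from 47.3, 45.1 and 45.0% Cast to 21.5, 19.03 and 20.3%, a change of -1.70 ± 0.086. Pir (-1.38 ± 0.18), the peroxiredoxin gene Prdx4 (-1.26 ± 0.11), the Xist activator gene Rlim (-1.23 ± 0.066), the ubiquitin ligase scaffold gene Cul4b (-1.12 ± 0.082) and the chromatin remodeller gene Atrx (-1.03 ± 0.059) lay between these values and the smaller changes that follow. Renbp, with 48.1, 45.4 and 49.2% on day 0 and 38.7, 38.2 and 38.6% on day 4, and Jade3, with 35.8, 41.0 and 39.9% and 32.8, 31.9 and 28.9%, changed by -0.52 ± 0.11 and -0.55 ± 0.095. All of these passed the test with a lower ratio. Klhl13, a substrate adaptor of a ubiquitin ligase, was the exception and is described below.

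To ask which genes were silenced more or less than the chromosome as a whole, each change was tested against the median of all 486 genes. By this test 66 genes were silenced more (13.6%) and 62 less (12.8%). Of all genes tested, each against the median of its own class, 7.69% and 7.96% were called. Of the 62 less silenced genes, 35 were still called lower against day 0, 22 were not called and 5 were the genes called higher. Without day 0 replicate 2 the more silenced genes numbered 43.

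The 10 lowest changes among genes with 300 or more counts were those of Nhs, Amot, Stk26, Pak3, Ap1s2, Kis2, Prps2, Elf4, Tmem28 and Map7d3, from -6.01 to -2.62. Several of them rest on few counts of day 0. Nhs (chrX:161833300-162159700), an actin regulator gene, had 1, 11 and 11 Cast and 0, 1 and 0 B6 counts on day 0, and 35, 37 and 31 Cast and 129, 164 and 76 B6 counts on day 4 (-6.01 ± 0.85, adjusted p = 2.24e-08). With 1 B6 count on day 0 the size is loose, and it was -8.42 without day 0 replicate 2 and -5.21 without day 0 replicate 3. Of the 10, 4 (Nhs, Pak3, Kis2 and Map7d3) had fewer than 50 counts on day 0, and Map7d3, with 9 counts there, did not pass the test (adjusted p = 0.0666). Pak3, a p21-activated kinase gene, had a change of -1.58 and no call without day 0 replicate 2, and one of -4.39 without day 0 replicate 3. The call for the noncoding transcript Kis2 was lost without day 0 replicate 3. Amot encodes the scaffold angiomotin of the Hippo pathway. It had 2, 57 and 40 Cast against 4, 7 and 11 B6 counts on day 0, a Cast share of 33.3, 89.1 and 78.4%, and 14.9, 16.6 and 14.6% on day 4 (-4.60 ± 0.33). The low share on day 0 is that of replicate 1, with 6 counts. Without day 0 replicate 2 the change was -3.92.

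Other genes of the 10 had more counts on day 0. Prps2 (chrX:167346300-167382700), for ribose-phosphate synthesis, had 75, 69.9 and 67.8% Cast on day 0 and 27.1, 23.7 and 24.6% on day 4 (-2.74 ± 0.14). Ap1s2, an adaptor complex subunit gene, had 81.8, 80.8 and 78.3% and 41.9, 27.4 and 27.1% (-2.95 ± 0.17). Elf4, an ETS factor gene, began near even, with 44.1, 53.1 and 50.3%, and had 14.7, 13.7 and 14.3% on day 4 (-2.64 ± 0.33). Of the genes with 300 or more counts, 9 had over 75% Cast on day 0, and their median change was -2.62. The 317 genes between 25% and 75% had a median of -1.21, and the 11 genes below 25% one of -0.34. Cysltr1, without counts on day 0, falls in none of these classes. The Cast/B6 change of the same classes in undeleted TX1072, where either chromosome can be inactivated, was -1.39, 0.0068 and 0.68, and the B6/Cast change in TXdXicCast was -0.13, -0.66 and -1.31. In TXdXicCast, where B6 is the chromosome to be silenced, the class above 75% Cast thus had the median closest to 0. Across the 338 genes the day 0 ratio and the change had a Spearman's rho of -0.39. The day 0 ratio enters both quantities, and genes are not independent.

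Escape genes kept more of the Cast allele than the median gene in 7 of 13 cases by the test against the chromosome median (62 of all 486 genes, 12.8%), and none was silenced more. Of the 13 measured genes in a list of 14, 8 were called lower, none higher and 5 not called, with a median change of -0.66, compared with 307 lower of 486 and -1.21 for all. The histone demethylase gene Kdm6a (chrX:18162580-18279940) was the least changed. It had 41.1, 48.7 and 46.5% Cast on day 0 and 47.0, 48.3 and 45.8% on day 4, and the days overlapped (-0.0049 ± 0.10, 95% interval -0.21 to 0.20). Eif2s3x, for a subunit of translation initiation factor 2, was Cast-rich throughout, with 71.5, 70.2 and 70.9% and 64.0, 66.9 and 66.1% (-0.34 ± 0.090, adjusted p = 0.00312). Other escape genes were lower in part. The demethylase gene Kdm5c changed by -0.66 ± 0.067, the RNA helicase gene Ddx3x by -0.75 ± 0.071 and Pbdc1 by -0.52 ± 0.10. At the other end, Utp14a (-1.18 ± 0.078), for ribosome assembly, and Mid1 (-1.96 ± 0.47), a ubiquitin ligase gene, did not pass the test against the chromosome median. Bgn and Car5b had 98 counts each and were not called.

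**Figure D3:**
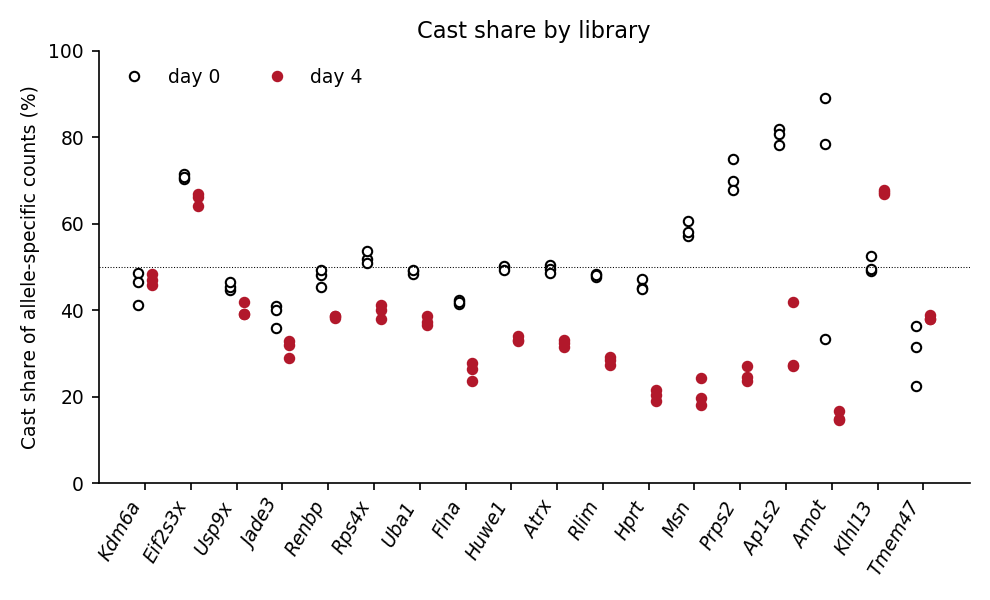
Cast share of the allele-specific counts (y axis, percent) of 18 X-linked genes (x axis) in the 3 libraries of day 0 (open circles) and of day 4 (red circles). The dotted line marks 50%. Kdm6a overlaps between the days, Prps2 and Ap1s2 start high, and Klhl13 is the gene whose share rises from about even to 66.9, 67.8 and 67.4%.

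Only 5 genes were called with a higher Cast/B6 ratio on day 4, that is, their Cast allele gained on the B6 allele while the Cast chromosome was being silenced. Klhl13 (mm10, chrX:23219270-23365080) had the most counts of them (19061). Its Cast share was 49.01, 52.5 and 49.6% on day 0 and 66.9, 67.8 and 67.4% on day 4 (0.99 ± 0.071, adjusted p = 2.59e-20), and the days did not overlap. The ratio was already higher on day 2 (0.53 ± 0.072). Tmem47 (chrX:81070700-81097870), a membrane protein gene of cell junctions, had 36.4, 31.4 and 22.6% and 38.0, 39.0 and 38.0% (0.66 ± 0.16, adjusted p = 0.00127). The days did not overlap. Without day 0 replicate 3 this change was 0.40 and not called (adjusted p = 0.206). Lrch2 (chrX:147470400-147554100) was B6-rich on day 0, with 1, 10 and 10 Cast against 9, 114 and 110 B6 counts, and its Cast share rose from 10, 8.06 and 8.33% to 25.1, 20.1 and 14.3% (1.53 ± 0.36, adjusted p = 7.70e-04). Klhl34 and Magee2 rest on 68 and 70 counts. Klhl34 had 5 Cast and 48 B6 counts on day 0 and 8 and 7 on day 4 (adjusted p = 0.0388). Magee2 had 0 Cast and 42 B6 counts on day 0 and 6 and 22 on day 4 (adjusted p = 0.0261). With 3 counts as the floor over the 3 libraries of day 0, its ratio was 3.82-fold higher, a value that leaves out counting error. Both calls were lost when single libraries were left out.

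Of the other genes at the top of the ranking, none passed the test. Gm14513, a processed pseudogene, had 0 Cast counts on day 0 and 1 on day 4. Hs6st2, Ldoc1 and Nrk had 8, 22 and 24 counts on day 0. Platr21, Efhc2 and Gm14820, the last annotated as antisense and counted with a strand setting that is not stated, had changes of 0.22 ± 0.37, 0.092 ± 0.56 and 0.075 ± 0.37. Their intervals allow a fall, and Platr21 and Gm14820 were silenced less than the median by the test.

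The promoters of these genes are shown so that differences between the strains just before the start can be seen. The sequences are the 250 bases before the RefSeq start (GRCm38.p6), read 5′ to 3′ on the strand of the gene, in lower case. Capitals mark positions where the deposited SNP list has a B6/Cast difference, and positions are counted from 1 at the 5′ end of the printed run. The first 3 belong to genes called higher, Nhs had the lowest change among genes with 300 or more counts, and Kdm6a was the least changed escape gene.
Klhl13 (chrX:23365083-23365332, minus strand): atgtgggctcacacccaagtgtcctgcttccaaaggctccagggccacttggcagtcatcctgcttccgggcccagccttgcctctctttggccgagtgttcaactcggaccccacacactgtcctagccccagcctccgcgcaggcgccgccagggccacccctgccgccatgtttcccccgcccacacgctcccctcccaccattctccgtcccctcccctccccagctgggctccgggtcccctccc
Tmem47 (chrX:81070394-81070643, plus strand): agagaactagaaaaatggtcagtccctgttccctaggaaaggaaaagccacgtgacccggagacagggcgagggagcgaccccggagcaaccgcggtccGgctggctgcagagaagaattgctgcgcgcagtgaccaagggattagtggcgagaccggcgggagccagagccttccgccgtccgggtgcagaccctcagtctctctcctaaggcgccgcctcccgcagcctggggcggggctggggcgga
Lrch2 (chrX:147554082-147554331, minus strand): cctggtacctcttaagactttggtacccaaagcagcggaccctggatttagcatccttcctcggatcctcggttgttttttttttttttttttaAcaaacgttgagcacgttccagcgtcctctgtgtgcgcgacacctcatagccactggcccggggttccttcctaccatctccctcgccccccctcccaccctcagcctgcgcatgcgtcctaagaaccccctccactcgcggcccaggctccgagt
Nhs (chrX:162159442-162159691, minus strand): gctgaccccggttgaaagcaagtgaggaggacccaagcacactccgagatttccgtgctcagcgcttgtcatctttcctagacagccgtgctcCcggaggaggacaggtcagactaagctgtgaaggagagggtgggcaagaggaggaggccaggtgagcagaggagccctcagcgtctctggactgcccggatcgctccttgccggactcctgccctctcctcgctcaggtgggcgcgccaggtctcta
Kdm6a (chrX:18162325-18162574, plus strand): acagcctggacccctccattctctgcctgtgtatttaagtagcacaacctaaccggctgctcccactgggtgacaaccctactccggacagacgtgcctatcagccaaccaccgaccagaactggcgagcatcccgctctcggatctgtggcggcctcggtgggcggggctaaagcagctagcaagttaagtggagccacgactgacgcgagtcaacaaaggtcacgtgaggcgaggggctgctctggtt

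The windows of Klhl13 and Kdm6a hold no listed difference. Tmem47 has 1 (G100C), Lrch2 has 1 (A95T) and Nhs has 1 (C94T). Among the 10 lowest genes, all with a RefSeq promoter, 2 had a difference in the window, and among the 8 matched of the 10 highest 5 did, whereas 47.9% of the 397 matched genes and 37.8% of all 1046 X-linked promoters had one. The letters CCATNTT, searched on both strands of the 300 bases from 250 before to 50 after the start, were present in 2 of the 10 lowest, 3 of the 8 highest, 16.9% of the 397 and 20.2% of the 1046 promoters. AAGATGGC was in 2, 0, 5.29% and 3.35%. Both are forms of the core motif of the factor YY1, and each AAGATGGC also holds CCATNTT on the other strand. These are descriptions of the reference sequence and do not show what any base does.

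Gene groups are set beside the 486 genes as a whole, of which 63.2% were lower, 13.6% were silenced more and 12.8% less than the median, with a median change of -1.21. Calls depend on counts, since 285 of the 338 genes with 300 or more counts were lower but 22 of the 148 others. For each group that follows, a share of lower genes above 63.2% is therefore no sign of stronger silencing. All 25 chromatin and transcription regulators of the list were measured, 22 (88%) were called lower and none higher, with a median of -1.12, slightly nearer 0 than that of all genes. Of the 25, 6 were silenced more than the median and 5 less. Phf6 (-2.21 ± 0.14), with 58.1, 54.3 and 56.9% Cast on day 0 and 24.7, 18.8 and 19.9% on day 4, and the histone-binding protein gene Rbbp7 (-2.04 ± 0.26) were among those silenced more. Hdac8 had the lowest change (-2.41 ± 0.86) on 126 counts. Taf1, for a subunit of the general factor TFIID, and the Mediator subunit gene Med14 kept most of the Cast allele. Taf1 had 61.0, 62.9 and 55.1% and 52.1, 57.2 and 55.5%, and Med14 had 41.3, 44.9 and 45.4% and 43.4, 38.3 and 40.5%. Neither was called, and both were silenced less than the median by the test. Stag2, the third gene without a call, had 140 counts.

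Genes of translation and RNA had 14 of 18 members measured, with 11 lower (78.6%, 63.2% of all), none higher and a median of -0.96 (-1.21 for all). The initiation factor gene Eif1ax fell by 1.57, whereas the cold-inducible RNA-binding protein gene Rbm3 changed by -0.57 ± 0.060 and Nkap by -0.44 ± 0.11, both less than the median by the test. The lowest value, that of Mbnl3 (-2.64 ± 1.29), and the highest, that of Hnrnph2 (-0.22 ± 1.00), did not pass. For metabolism and mitochondria, 22 of 26 genes were measured, with 19 lower (86.4%, 63.2% of all), none higher and a median of -1.11 (-1.21 for all). Here 7 genes were silenced more than the median and 6 less. Those silenced more included the ribose-phosphate synthesis genes Prps2 and Prps1 (-2.12 ± 0.079), the acyl-CoA synthetase gene Acsl4 (-2.44 ± 0.12) and the glycolytic gene Pgk1, which went from 75.4, 77.1 and 78.3% Cast to 46.0, 39.5 and 46.7% (-2.11 ± 0.094). Those silenced less included the pyruvate dehydrogenase subunit gene Pdha1 (-0.48 ± 0.073) and the isocitrate dehydrogenase subunit gene Idh3g, with 50.7, 47.7 and 49.3% and 43.1, 42.2 and 41.2% (-0.38 ± 0.069). Atp6ap1 had the highest value (0.38 ± 0.61) on 171 counts and was not called.

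The Armcx, Bex and Tceal genes, a cluster of related genes on the distal part of the chromosome, had 17 of 22 members measured. Of these, 11 were lower (64.7%, 63.2% of all), none was higher, and the 6 without a call had 94 to 196 counts each. The median was -1.60 (-1.21 for all), with 4 genes silenced more than the chromosome median and none less (66 and 62 of all 486). Tceal8 went from 51.6, 40.9 and 41.8% to 19.8, 16.4 and 17.9% (-1.72 ± 0.11) and Armcx1 changed by -1.82 ± 0.13. The extremes of the list, Armcx6 (-3.25 ± 1.31) and Tceal1 (-1.04 ± 0.93), did not pass. Cytoskeleton and adhesion genes had 16 of 19 members measured, with 12 lower (75%, 63.2% of all), none higher and a median of -1.51 (-1.21 for all), and 7 were silenced more than the median and none less (66 and 62 of all 486). Msn (chrX:96096040-96168550), whose product moesin links actin to the membrane, had 57.2, 60.6 and 58.0% Cast on day 0 and 24.2, 19.8 and 18.1% on day 4 (-2.45 ± 0.084). The glypican gene Gpc3 changed by -2.40 ± 0.16. The lowest value was that of the collagen gene Col4a6, with 12 Cast and 0 B6 counts on day 0 and 38 and 88 on day 4 (adjusted p = 8.19e-04). At the floor of 3 counts its ratio was 9.26-fold lower, a value that leaves out counting error. The highest was that of L1cam (0.44 ± 1.05), which was not called.

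Among X-linked genes of the naive state and of signalling, 14 of 21 were measured, with 11 lower (78.6%, 63.2% of all), 1 higher (Klhl13) and a median of -1.35 (-1.21 for all). The homeobox gene Rhox6 was Cast-rich, with 76.2, 86.6 and 83.2% and 45.5, 48.0 and 46.2% (-2.60 ± 0.29). The MAP kinase phosphatase gene Dusp9 changed by -0.63 ± 0.093 and was silenced less than the median. Nr0b1, whose product represses nuclear receptors, had 3404 of its 3791 counts on day 0 and changed by -0.95 ± 0.16. Fthl17a had 1 count on day 0, and its value (-3.82 ± 2.55) says little.

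The calls built up with time. On day 1, 27 of the 486 genes were lower (5.56%, against 5.40% of all genes tested and 5.39% of autosomal genes) and 15 higher (3.09%, against 4.93% and 5%), so that the shares were near the background. On day 2, 148 were lower (30.5%, against 7.29% and 6.5%) and 10 higher (2.06%, against 5.7% and 5.83%). On day 3, 265 were lower (54.5%, against 9.27% and 7.72%) and 3 higher (0.617%, against 7.23% and 7.46%). The days share the day 0 libraries. Of the 148 genes lower on day 2, 142 were also lower on day 4. The median changes were -0.022, -0.50 and -0.91. Rlim (chrX:103957200-103981300), which lies next to the deleted region, had its lowest ratio on day 2. Its Cast share was 47.7, 48.4 and 48.1% on day 0, 36.9, 39.6 and 36.0% on day 1, 17.8, 15.7 and 16.2% on day 2, 22.8, 21.7 and 24.0% on day 3 and 29.3, 27.4 and 28.5% on day 4. The changes were -0.64, -2.22, -1.66 and -1.23. The changes of Atrx were 0.097, -0.70, -0.87 and -1.03. Of the 10 genes called higher on day 2, 3 were called lower on day 4. Usp9x went from 0.21 on day 2 to -0.34 on day 4, Nr0b1 from 0.35 to -0.95 and Tbc1d25 from 0.46 to -0.96. Klhl13, Lrch2 and Tmem47 were called higher on both days, and 1810030O07Rik, 4933402E13Rik, Med14 and Rpgr were not called on day 4. Genes of this group outside the rule for named genes were chosen after their values were seen.

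Along the chromosome, the share of genes lower on day 2 was highest next to the Xist locus and lowest at the far centromeric end among bins of 15 or more genes, and the difference was not tested. Of the 53 genes up to 10 Mb on its centromeric side, 32 (60.4%) were lower on day 2, and of the 26 genes up to 10 Mb on the other side 12 (46.2%). Of the 84 genes more than 80 Mb away on the centromeric side, 5 (5.95%) were. This share is near the background of day 2, 7.29% of all genes tested and 6.5% of autosomal genes. Between these, the centromeric side had 20% at 60 to 80 Mb, 35.3% at 40 to 60 Mb and 17 of 81 genes at 20 to 40 Mb, and the other side 35% at 20 to 40 Mb, 38.8% at 40 to 60 Mb and 26.9% at 60 to 80 Mb, so that the shares did not fall evenly with distance. The median changes on day 2 were -0.71 and -0.70 in the bins next to Xist and -0.14 in the far bin. Among bins of 15 or more genes the lowest day 2 median was not next to Xist. It was -0.75, that of the 60 genes 20 to 40 Mb away on the other side. On day 4 the shares of the bins next to Xist and of the far bin were 83.0%, 61.5% and 53.6%, with 9.54% over all genes tested. Their median changes were -1.29, -1.52 and -0.93. The 68 genes 40 to 60 Mb away on the centromeric side had the lowest median among bins of 15 or more genes (-1.74). Across the 486 genes the distance from Xist and the change had a Spearman's rho of 0.19 on day 2 and 0.062 on day 4. Neighbouring genes are not independent.

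**Figure D4:**
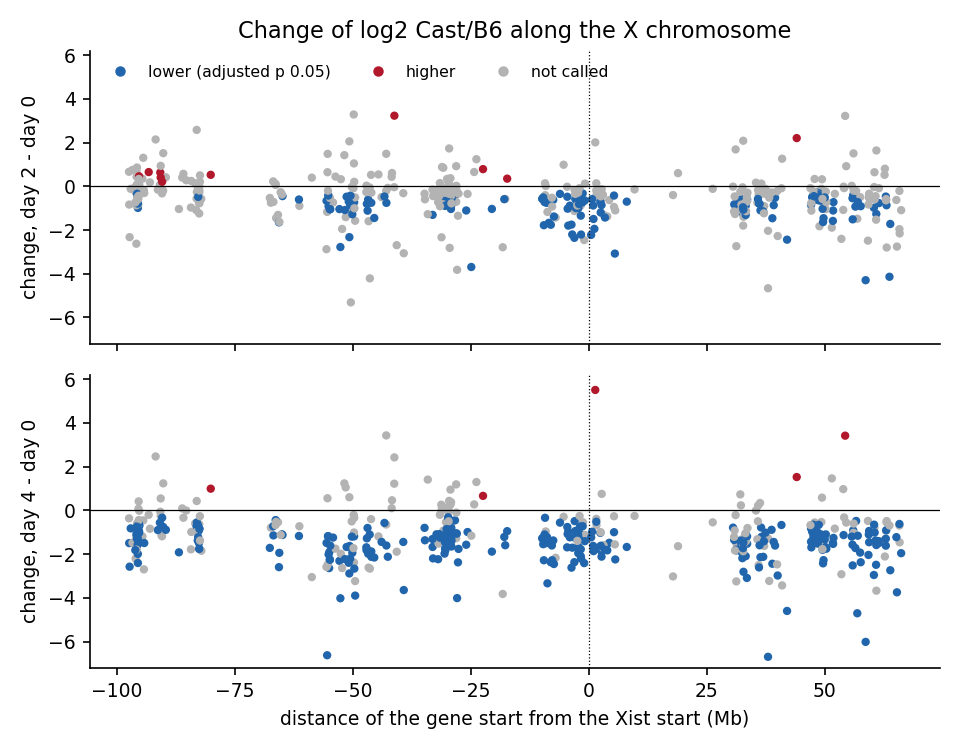
Change of log2 Cast/B6 against day 0 (y axis) on day 2 (top) and day 4 (bottom) by distance of the gene start from the Xist start in Mb (x axis, negative on the centromeric side), 1 point per gene. Blue points are called lower, red higher and grey not called. On day 2 the share of blue points is 60.4% within 10 Mb on the centromeric side and 5.95% beyond 80 Mb. The share of all genes tested that were called lower on day 2 is 7.29%.

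A ratio does not say which allele moved, so each allele was also tested by itself. With library sizes from the total autosomal counts, 63 genes had a lower (13%) and 57 a higher Cast level (11.7%) on day 4, and 25 a lower (5.14%) and 140 a higher B6 level (28.8%). The backgrounds over all genes were 4.61% and 17.4% for Cast and 4.56% and 18.2% for B6. In this scaling the autosomal medians were 0.56 and 0.57, and without day 0 replicate 1 the lower Cast and B6 levels numbered 190 and 52. With library sizes from the allele-specific autosomal counts, an alternative chosen after seeing the data, the autosomal medians were 0.038 and 0.043. The Cast level was then lower for 268 genes (55.1%, background 23.1%) and higher for 66 (13.6%, background 25.3%), with a median of -0.80. The B6 level was lower for 94 (19.3%, background 22.6%) and higher for 194 (39.9%, background 27.0%), with a median of 0.31. Of the 307 genes with a lower ratio, 213 had a lower Cast level, 128 a higher B6 level, 43 both, and 27 a higher Cast level. The ratio and the levels rest on the same counts, which favours a lower Cast or a higher B6 level among these genes. No background share is given for these numbers, and they are descriptions.

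The 3 largest rises of each allele were those of 4 genes near 0 on day 0. Fndc3c1 had 0, 2 and 2 Cast and 0, 6 and 3 B6 counts on day 0 and 359, 402 and 189 Cast and 2594, 2485 and 1576 B6 counts on day 4. Nrk, a kinase gene, had 0, 3 and 6 Cast and 1, 9 and 5 B6 counts on day 0 and 532, 436 and 299 Cast and 765, 779 and 535 B6 counts on day 4. The leukotriene receptor gene Cysltr1 had none on day 0 and 111 Cast and 332 B6 counts on day 4. Map7d3 had 0, 4 and 3 Cast and 0, 2 and 0 B6 counts on day 0 and 312, 303 and 167 Cast and 572, 577 and 344 B6 counts on day 4. In these 4 genes both alleles were at or near 0 on day 0, so that their rises have no firm size. With allele-specific library sizes, the Cast level of Klhl13 rose by 1.43 ± 0.15 on the log2 scale (adjusted p = 4.45e-08) and its B6 level by 0.41 ± 0.15 (adjusted p = 0.0284), and with total library sizes the changes were 2.00 and 1.01. For Atrx the Cast level changed by -1.62 and the B6 level by -0.59, compared with -1.18 and -0.16 with total library sizes. For Rlim these values were 0.98 and 2.21, compared with 1.42 and 2.65.

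The reciprocal line was used to ask whether a change follows the inactive chromosome or the allele. In TXdXicCast, where the B6 X chromosome is the one to be inactivated, the change of the B6/Cast ratio is the matching quantity. Of 482 genes tested in both lines, 243 had a lower (50.4%, background 12.4%) and 6 a higher inactive-to-active ratio there (1.24%, background 10.7%), with a median of -0.67. Of the 482, 199 were lower in both lines, and no background share is given for that count. The difference between the lines (edgeR interaction over 14361 genes) was negative, with a larger fall of the inactive-to-active ratio in TXdXicB6, for 155 genes (32.2%, background 14.7%) and positive for 24 (4.98%, background 13.5%). Tested against the median difference of -0.48 in place of 0, 70 of the 482 genes were called below it and 53 above it, shares no higher than the 14.7% and 13.5% of all genes called against 0. Xist was at 436, 698 and 641 CPM on day 4 in TXdXicB6 and at 298, 463 and 389 CPM in TXdXicCast. The part of this in the difference was not tested. TXdXicCast day 0 RNA was partly degraded and was fragmented for a shorter time and at a lower temperature, and each line is 1 clone, so that line and clone cannot be told apart.

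**Figure D5:**
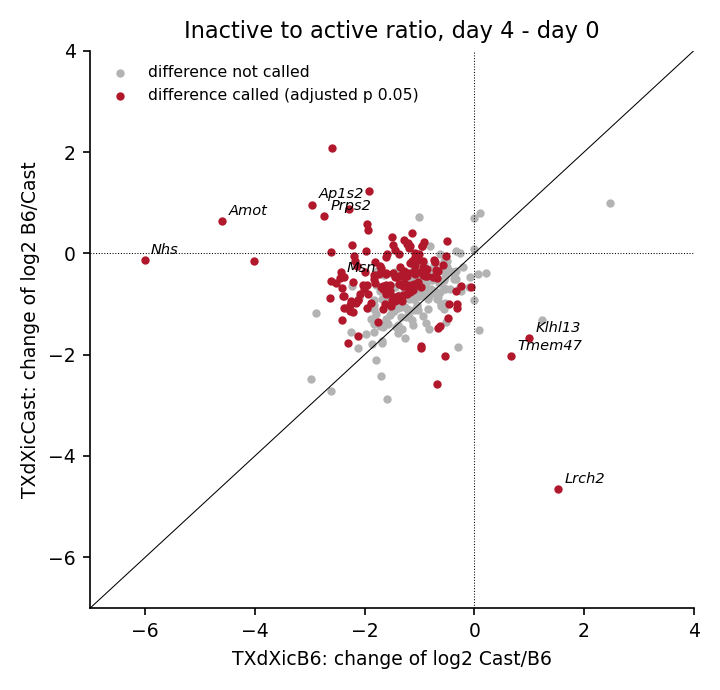
Change of the inactive-to-active ratio (log2, day 4 minus day 0) in TXdXicB6 (Cast/B6, x axis) and TXdXicCast (B6/Cast, y axis), 1 point per X-linked gene with 300 or more counts. Red points differ between the lines by the test, and the diagonal marks equal change. Klhl13, Tmem47 and Lrch2 lie to the lower right, Amot, Nhs, Ap1s2 and Prps2 to the left near or above 0 on the y axis.

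The 5 smallest adjusted p-values of this comparison belonged to Klhl13, Prps2, Msn, AU015836 and Ap1s2. Klhl13 had 40.8, 45.3 and 45.2% Cast in TXdXicCast on day 0 and 72.1, 71.7 and 70.8% on day 4, and 48.7, 51.6 and 50.0% and 71.0, 72.6 and 72.0% in undeleted TX1072. Its Cast share was thus higher on day 4 than on day 0 in all 3 lines, without overlap, and the difference between the deletion lines was 2.67 ± 0.10 (adjusted p = 1.34e-32). Tmem47 had 17.6, 13.8 and 13.8% and 40.9, 41.1 and 42.1% Cast in TXdXicCast. Lrch2 had 3.45, 6.32 and 8.86% and 61.2, 68.1 and 69.1%. In Prps2, Msn, AU015836 and Ap1s2 the difference between the deletion lines had the opposite sign to that of Klhl13. Prps2 had 72.8, 75.3 and 72.3% Cast in TXdXicCast on day 0 and 62.1, 62.6 and 62.2% on day 4, and 72.0, 65.7 and 65.3% and 49.8, 53.6 and 49.2% in TX1072. Ap1s2 had 71.0, 83.4 and 80.8% and 70.7, 59.9 and 71.9% in TXdXicCast, and AU015836 had 80.4, 84.7 and 83.9% and 72.3, 72.3 and 76.2%. For Prps2 and AU015836 every library of day 4 was thus below every library of day 0 in TXdXicCast too, where Cast is the active allele, whereas for Ap1s2 the days overlapped. The Cast share of Msn, by contrast, was higher on day 4 there, with 58.6, 60.6 and 59.96% and 68.2, 67.8 and 67.1%, and its B6/Cast ratio changed by -0.49. The B6/Cast ratio of Kdm6a changed by 0.086 ± 0.096 in TXdXicCast.

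Single TX1072 cells gave the ratio in cells with Xist from the Cast chromosome alone. Of the day 4 cells with 40000 or more unique molecular identifiers (UMIs), 49 had more than 5 Xist UMIs from Cast and none from B6. They were compared with 312 day 0 cells of the same minimum, after cells with a strong skew of X-linked UMIs to 1 allele were left out. Cells are not replicates, so that no test was made, and counting error alone is given. Over the 486 genes the Cast share of the UMIs was 49.3% on day 0 and 14.2% on day 4 in these cells. The summed change was -2.55, compared with -1.09 in bulk TXdXicB6. These values are not like for like. The cells were selected for Xist from Cast and counted by UMIs in another line, whereas the bulk value is total RNA of unselected cells. Among the 105 genes with 50 or more allele-specific UMIs on each day, the median change was -3.01. Across these genes the bulk and the single-cell changes had a Spearman's rho of 0.72. Klhl13 had 1115 Cast and 1245 B6 UMIs in day 0 cells and 163 and 130 in day 4 cells, a change of 0.48 ± 0.18 (counting SE). In the 38 day 4 cells with more than 10 Xist UMIs from Cast it was 0.24, and with all deposited cells 0.47. Tmem47, called higher in bulk, had 52 Cast and 221 B6 UMIs on day 0 and 39 and 181 on day 4, a change of -0.12 ± 0.33. Besides Klhl13, values above 0 in the cells were those of Atp6ap2 (0.96 ± 0.42, compared with -0.56 ± 0.18 in bulk), Rpgr (0.63 ± 0.40, compared with -0.20 ± 0.19) and the pseudogene Gm14513, with 9 Cast UMIs on day 0 and 8 on day 4. Rlim had 45 Cast and 804 B6 UMIs on day 4 (-4.26 ± 0.23). Rps4x had 10 Cast and 1965 B6 UMIs already on day 0, so that its ratio cannot be followed in these cells. Hprt had 1856 and 1893 on day 0 and 16 and 435 on day 4 (-4.65 ± 0.36).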

How the data were processed

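RNA was measured in 15 TXdXicB6 and 15 TXdXicCast libraries, with bulk and single-cell TX1072 data beside them. The deposited values are raw read counts per gene, in total and per allele, and for single cells UMI counts. Per the labels and the methods, the authors aligned reads with STAR (2.5.2b) to mm10 with strain SNPs masked, counted with featureCounts and split alleles with SNPsplit. The strand setting is not given in the sources used here, so that overlapping and antisense genes are uncertain. TX1072 columns of other days and an extra 5′ Xist row were not used here, and no doublet caller was run on the single cells. Depth was 20246434 to 49962859 total counts per TXdXicB6 library, and intervals cover what that depth and the replicates allow.

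Gene positions came from GENCODE M21 (51544 of 52108 symbols) and RefSeq (439 more). B6 and Cast counts were fitted together with edgeR (4.0.16, R 4.3.3) as 30 columns with a term for each library, the allele and the allele by day, and tested by quasi-likelihood with Benjamini-Hochberg adjustment over 14567 genes with 50 or more allele-specific counts in the 6 libraries of days 0 and 4. The median test shifts the null to the median of X-linked or autosomal genes, level tests use each allele alone, and the line test fits 60 columns. Fitted changes of genes with an allele at 0 depend on the prior count. Single-cell changes use a pseudocount of 1, and a minimum of more than 10 Xist UMIs and all deposited cells were tried as alternatives. The ratio fit was tested on simulated data, whose dispersion was lowered towards the fitted one after a first run had recovered few of the changed genes. Recovery then was 34% for a log2 change of -0.5, 72% for -1 and 92% for -2, with 50 changed genes each. These rates were not split by count, so they are no measure for genes with few counts. Of the 174 X-linked genes without a call, 124 had under 300 counts. A gene without a call may therefore have changed. DESeq2 (1.42.0), other filters, scalings and omitted libraries served as alternatives, of which the allele-specific library size and the joint omission of the 3 libraries with a low allele-assigned share were chosen after seeing the data.

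Replicates were differentiated on different days per the study's reporting summary, so that replicate numbers pair the libraries. Deviations of same-numbered libraries of days 0 and 4 correlated in level (r = 0.26, 0.21 and 0.23) but not in ratio (-0.021, 0.052 and 0.029). The rule for named genes took the 10 lowest and 10 highest changes among genes with 300 or more counts, the 5 with most counts, the genes the study assays or names, every gene called higher, list extremes and examples, the 5 smallest adjusted p-values between lines and the largest rises of an allele. The genes and lists were chosen with earlier results of these data known, and the printed promoters, the plotted genes and other examples after their values were seen.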

Additional observations from a re-analysis of the deposited data

Results flagged for a closer look

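The change of the inactive-to-active ratio from day 0 to day 4 differed between TXdXicB6 and TXdXicCast for 179 of 482 X-linked genes by a test of the difference itself (edgeR interaction, adjusted p of 0.05 or less), 155 with a negative difference (32.2%) and 24 with a positive one (4.98%). Of all 14361 genes tested, 14.7% and 13.5% were called in these directions, so that a large part of the count is at the general rate. All values are TXdXicB6 minus TXdXicCast on the log2 scale, so that a negative value stands for a larger fall of the inactive-to-active ratio in TXdXicB6. A fall of the Cast share in both lines, as in Prps2 and AU015836, also gives a negative value.

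The genes with the lowest changes were picked from the TXdXicB6 libraries that also enter the difference, which favours a negative value, and their differences are descriptions. Nhs differed by -5.91, Amot by -5.24, Ap1s2 by -3.92, Stk26 by -3.88, Prps2 by -3.48, Tmem28 by -2.07 and Elf4 by -1.76. AU015836 differed by -3.16 and Msn by -1.96. Of the genes the study assays or names, Pir differed by -1.36, Hprt by -1.03, Cul4b by -0.97, Prdx4 by -0.66, Atrx by -0.46, Rlim by -0.43 and Huwe1 by -0.32. Of the genes with most counts, Rps4x differed by -0.54 and Uba1 by -0.19, whereas Usp9x differed by 0.41.

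The 5 genes called higher in TXdXicB6 all differed in the positive direction, Magee2 by 10.4, Klhl34 by 7.64, Lrch2 by 6.18, Tmem47 by 2.70 and Klhl13 by 2.67. Their choice likewise rests on the TXdXicB6 libraries, which favours a positive value. The values of Magee2 and Klhl34 rest on 70 and 68 counts in TXdXicB6 and are no measure of size. The part of the degraded day 0 RNA of TXdXicCast in these differences was not tested.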

How the results depend on the processing

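The number of genes with a lower Cast/B6 ratio was 307 and ranged from 266 (without day 0 replicate 2) to 311 (the 6 libraries of days 0 and 4 alone). Of the 289 genes DESeq2 called, all 289 were among the 307. The number with a higher ratio was 5, and 3 with DESeq2, with 50 counts in each day and with a count minimum of 200, 2 when genes with 90% or more of day 0 counts on 1 allele were left out, and 2 to 5 when 1 library was left out. Genes silenced more than the median numbered 66, and 43 to 63 without 1 library. The chromosome-wide change was -1.18 without the 10 genes with the most counts. Lower Cast levels numbered 63, but 268 with allele-specific library sizes and 41 to 190 without 1 library. Lower B6 levels numbered 25, then 94 and 17 to 52. Between the lines, 155 and 24 of 482 became 70 and 53 once the median difference was taken off, shares no higher than the 14.7% and 13.5% of all genes tested.

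The replicate block gave 308 lower genes, 303 of them shared. Not every named gene was followed under the alternatives. Among those that were, the block ended 1 call, that of Magee2 (adjusted p = 0.058). The block also turned Ldoc1 to -0.19. Other values that changed sign belonged to genes that were not called. Leaving out 1 library gave a range of -0.14 to 0.39 for Platr21 (lowest without day 0 replicate 2), -0.94 to 0.86 for Ldoc1 (without day 0 replicate 3 and 2), -0.37 to 0.40 for Efhc2, -0.22 to 0.31 for Gm14820 and -0.72 to 0.96 for Nrk. Nrk was 0.0069 with DESeq2 and 0.0013 in the fit of both lines. Calls were also lost for Pak3 (adjusted p = 0.525 without day 0 replicate 2), Kis2 (0.0609) and Tmem47 (0.206, both without day 0 replicate 3), and for Klhl34 and Magee2 in several settings. The causes were not tested. Few counts limit 117 genes with under 50 counts on day 0.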
